A study of Mus musculus with 4 samples.

Results

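A set of 10 genes carries pyruvate production and lactate handling from the lower steps of glycolysis to export from the cell, and was examined as a group. The genes were taken by symbol from the deposited table, which holds all 10 of them among 24421 rows. They were the enzyme genes Gapdh, Pgk1, Pgam1, Eno1, Eno2 and Pkm, the lactate dehydrogenase genes Ldha and Ldhb, and the monocarboxylate transporter genes Slc16a1 and Slc16a3. RNA was sequenced from isolated pancreatic islets, the hormone-secreting cell clusters of the pancreas, of wild-type C57BL/6 mice. There were 2 cytoEV libraries and 2 control libraries. The cytoEV islets received the treatment of that name daily for 48 h, and per the title of the study the vesicles were small ones shed by beta cells in a pro-inflammatory state. The labels call the control islets untreated, while the matching columns are headed Ctl_EV, so it is uncertain whether they received other vesicles. All islets were kept in medium with 11 mM glucose, and a treatment time is stated for the cytoEV islets alone. Neither the number of mice nor whether replicates came from separate animals is given, so the p-values measure the spread between these libraries, which may be technical.

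The lower steps of glycolysis turn triose phosphate into pyruvate and gain ATP and NADH on the way. Lactate dehydrogenase can then reduce pyruvate to lactate, and monocarboxylate transporters carry lactate across the plasma membrane together with a proton. Beta cells are known to keep Ldha and Slc16a1 very low, and both genes are often called disallowed there. Several genes of the pathway, among them Pgk1, Eno1, Ldha and Slc16a3, are textbook targets of the hypoxia-inducible factor HIF-1.

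Expression of 7 of the 10 genes was lower in cytoEV islets than in control islets: Slc16a3, Ldha, Eno1, Pgk1, Pgam1, Gapdh and Pkm. The other 3, Eno2, Ldhb and Slc16a1, did not pass. The call was a Benjamini-Hochberg adjusted p under 0.05 in limma on log2(CPM + 1), over the 12780 genes that reached 1 CPM in 2 or more libraries (CPM, reads per 1000000 counted reads of a library). Lower calls made up 3.51% of all tested genes and higher calls 3.16%. In limma 0 of the 10 were called higher, 1 (Ldhb) had an unadjusted p under 0.05 in that direction, and edgeR and DESeq2 called 0 higher. Of the 10 genes edgeR called 6 lower, against 3.15% of all tested genes, and DESeq2 7, against 6.61%. In CPM 9 of the 10 genes were lower in both cytoEV libraries than in both control libraries, and Ldhb was higher in both. Among all tested genes 26.1% were lower without overlap and 27.8% higher. All 10 passed the expression filter, but Slc16a1 passed through its control values alone, so its lower level in cytoEV islets follows in part from the filter. The median log2 change of the 10 was -0.82, against 0.01 for all tested genes. Together they held 1624 and 1687 CPM in the cytoEV libraries, against 2916 and 2552 CPM in the control libraries. In bulk islets fewer cells of a type and less RNA per cell cannot be told apart.

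Recovered sequencing depth was between 136134548 and 137964050 reads in the cytoEV libraries and between 129726756 and 156183968 reads in the control libraries, of which Ins1 and Ins2 took 19.6 to 20.7% in cytoEV islets and 17.5 to 20.6% in control islets. Beta cell markers, whose sum is mostly Ins1, Ins2 and Iapp, were together at 238300 and 248500 CPM in cytoEV islets and 239500 and 211300 CPM in control islets, so the defining genes of the labelled tissue were present. Of 11 beta cell markers tested, 3 were called higher in cytoEV islets (Slc2a2, Slc30a8 and Ero1lb) and 0 lower, with a list median of 0.21 on the log2 scale. The count of higher markers rose without either control library and fell without either cytoEV library, as did the count over all genes. A lower call was made without control replicate 2.

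**Figure D1:**
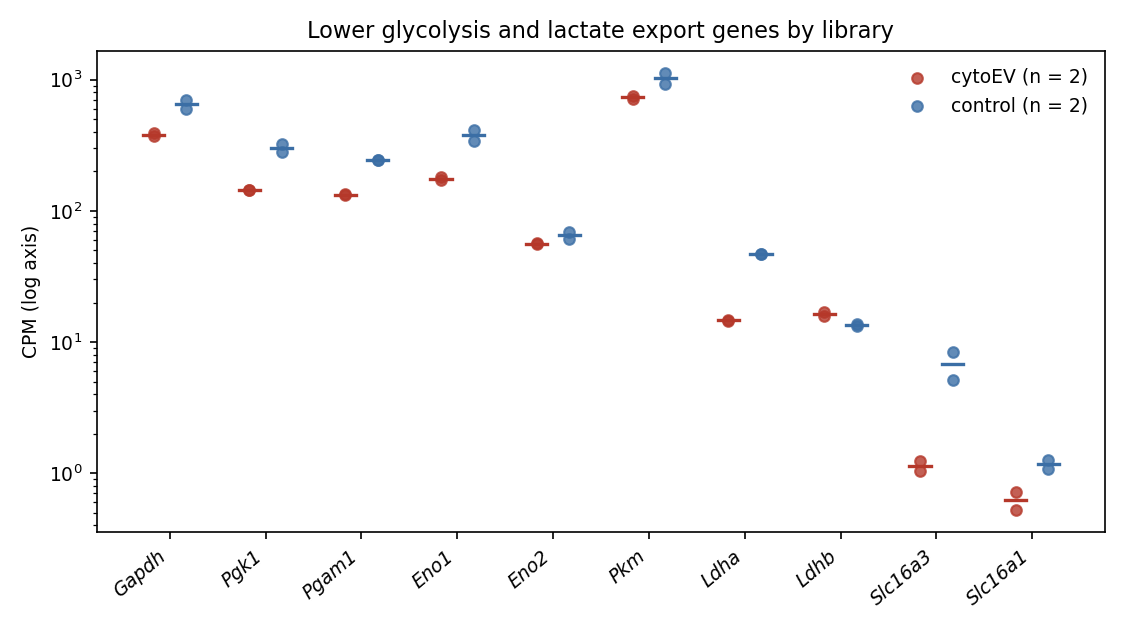
CPM of the 10 genes (log axis) in each library, with cytoEV islets in red to the left of control islets in blue; points are libraries and bars the mean of 2. The cytoEV points lie below the control points for 9 genes, and above them for Ldhb.

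The promoters of Ldha, Pgk1 and Slc16a3, which were lower together, are shown, with that of Ldhb beside them as a gene that did not pass. The sequences run 5′ to 3′ from 250 bases before the RefSeq transcript start (GRCm38.p6) and end 1 base before it, except for Slc16a3, whose last 14 bases lie in an annotated exon and were left off. Capitals mark the letters ACGTG or GCGTG, the core to which HIF proteins are known to bind, on either strand, so CACGT and CACGC are matches on the opposite strand. A run CACGTG, which is also the E-box bound by MYC and ChREBP, holds ACGTG on both strands.
Ldha, chr7:46845554-46845803, plus strand: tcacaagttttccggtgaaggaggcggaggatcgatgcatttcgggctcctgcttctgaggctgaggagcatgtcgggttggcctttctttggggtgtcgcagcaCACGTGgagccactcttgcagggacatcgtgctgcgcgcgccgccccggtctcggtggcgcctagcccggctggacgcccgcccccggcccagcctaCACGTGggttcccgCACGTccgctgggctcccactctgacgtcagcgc
Pgk1, chrX:106186850-106187099, plus strand: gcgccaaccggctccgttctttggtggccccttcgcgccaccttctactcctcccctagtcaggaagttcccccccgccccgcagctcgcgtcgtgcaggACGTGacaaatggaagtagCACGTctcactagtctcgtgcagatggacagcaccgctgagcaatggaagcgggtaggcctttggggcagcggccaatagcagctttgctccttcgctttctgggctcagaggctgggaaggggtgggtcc
Slc16a3, chr11:120948817-120949052, plus strand: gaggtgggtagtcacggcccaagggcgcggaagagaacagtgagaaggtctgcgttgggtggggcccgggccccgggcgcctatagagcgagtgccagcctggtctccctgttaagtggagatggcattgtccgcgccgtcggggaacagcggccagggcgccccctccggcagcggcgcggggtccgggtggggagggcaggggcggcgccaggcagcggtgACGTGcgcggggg
Ldhb, chr6:142507958-142508207, minus strand: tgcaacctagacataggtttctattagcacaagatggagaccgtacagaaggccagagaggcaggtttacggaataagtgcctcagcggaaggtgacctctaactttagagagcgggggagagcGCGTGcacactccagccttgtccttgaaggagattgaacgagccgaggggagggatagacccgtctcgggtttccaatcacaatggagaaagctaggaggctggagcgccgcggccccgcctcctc

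ACGTG occurred in the 250 bases before at least 1 RefSeq start of 6 of the 10 genes (Ldha, Pgk1, Pgam1, Pkm, Slc16a1 and Slc16a3), against 18.5% of all 27025 genes in the promoter table. The Pkm match, 75 bases before its start, and a Slc16a3 match 14 bases before its start lie in annotated exons of those genes. GCGTG occurred for 6 of 10 (Eno1, Gapdh, Ldha, Ldhb, Pgam1 and Slc16a1), against 30.9% of all genes. The GCGTG matches before the later Eno1 starts lie in annotated Eno1 exons, and the match 230 bases before the first Eno1 start does not. CACGTG occurred for Ldha and Slc16a1, against 6.86% of all genes. The printed Ldha window belongs to 1 of 2 starts, and its CACGTG runs begin 145 and 48 bases before that start. The window of the other Ldha start holds 1 GCGTG and neither ACGTG nor CACGTG. Of the 3 genes that did not pass, Ldhb holds GCGTG, Slc16a1 holds both cores, and Eno2 holds neither in this window. Eno1 and Gapdh, which were lower and are not printed, hold GCGTG alone, as Ldhb does. The windows of the 10 genes were rich in G and C, with a median of 63.4%, against 52.4% over all windows, and the part of base composition in these shares was not tested. A match is a run of letters and not a measured binding site.

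**Figure D2:**
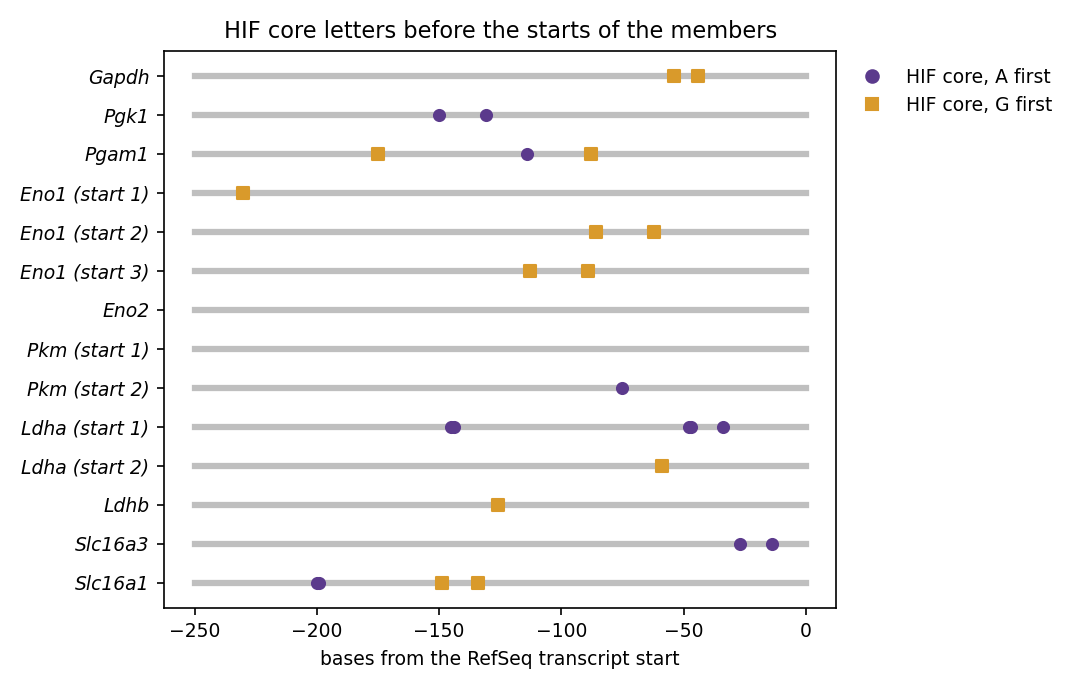
Positions of the HIF core letters in the 250 bases before each RefSeq transcript start of the 10 genes, in bases from the start (0); circles (A first) are ACGTG and squares (G first) GCGTG on either strand, and genes with several starts have a row each. Circles lie before a start of Pgk1, Pgam1, Pkm, Ldha, Slc16a3 and Slc16a1, and the Eno2 row has no mark. The Pkm circle, the Slc16a3 circle nearest to its start and the Eno1 squares of all rows but the first lie in annotated exons of those genes.

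Among the enzymes, Gapdh encodes glyceraldehyde-3-phosphate dehydrogenase, which makes the NADH of glycolysis. It is a minus-strand gene of chromosome 6, spanning bases 125161715 to 125166467 in GRCm38. Gapdh was measured at 373 and 389 CPM in cytoEV islets, against 706 and 594 CPM in control islets. Both cytoEV libraries lay below both control libraries, at 58.6% of the control mean. The log2 change was -0.76 ± 0.10 (SE, adjusted p = 0.00264 in limma), and with no expression filter its adjusted p was 0.0524. Gapdh has many processed pseudogenes, and 24.7% of the 50-base stretches of its transcripts also occur in transcripts of other genes. Of 953 stretches of the pseudogene Gm12070, 94.8% are in Gapdh transcripts, and this row held 0 and 4.67 CPM in cytoEV islets and 8.96 and 0 CPM in control islets. Adding it to Gapdh gave a log2 change of -0.77. An overlap of 68 exon bases with Iffo1 on the opposite strand covers 1.65% of the Gapdh exons.

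Pgk1 encodes phosphoglycerate kinase, the first ATP-forming enzyme of the pathway, on chromosome X from 106187100 to 106203699. It was measured at 145 and 144 CPM in cytoEV islets, against 280 and 322 CPM in control islets. The cytoEV libraries nearly coincided and were at 48.1% of the control mean, a log2 change of -1.05 ± 0.09 (SE, adjusted p = 0.000301 in limma). Of its 50-base stretches, 53.9% also occur in other genes, the highest share among the 10, so its separate value is uncertain. Pgam1, on chromosome 19 from 41911923 to 41918660, encodes phosphoglycerate mutase, which moves the phosphate that enolase then acts on. It was at 133 and 132 CPM in cytoEV islets, against 244 and 243 CPM in control islets, a log2 change of -0.87 ± 0.08 (SE, adjusted p = 0.000362 in limma). Replicates of Pgam1 were close in both groups, and 36.2% of its stretches are shared with other genes.

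Enolase makes phosphoenolpyruvate, and its ubiquitous form is encoded by Eno1 on chromosome 4 from 150236721 to 150248879. Eno1 was at 171 and 180 CPM in cytoEV islets, against 414 and 344 CPM in control islets. It fell to 46.3% of the control mean, a log2 change of -1.10 ± 0.10 (SE, adjusted p = 0.000433 in limma). Eno1b, a near copy with 82.2% of its stretches in Eno1, had 24.2 and 24.6 CPM in cytoEV islets and 57.3 and 49.3 CPM in control islets. Its log2 change was -1.09 ± 0.11 (SE, adjusted p = 0.000528 in limma), and since reads of the pair are hard to tell apart it is not a separate observation. Of 5509 stretches of Eno1, 1432 are shared with other genes. Summing the copies left the log2 change of Eno1 at -1.10. Eno2, the enolase known from neurons and neuroendocrine cells and located on chromosome 6 from 124760053 to 124769673, was at 55.7 and 56.7 CPM in cytoEV islets, against 69.6 and 60.7 CPM in control islets. The groups did not overlap, but the log2 change of -0.21 (95% interval -0.43 to 0.02) did not pass (limma adjusted p = 0.251). The value rests on the control libraries: it was -0.11 without control replicate 1 and -0.30 without control replicate 2. Eno2 passed without control replicate 2, a setting that gave more calls over all genes.

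Pkm, on chromosome 9 from 59656368 to 59679375, encodes the muscle-type pyruvate kinase, whose splice forms M1 and M2 are not separated in a table of genes. It was the most abundant of the 10 in CPM, at 713 and 753 CPM in cytoEV islets, against 1133 and 922 CPM in control islets. The groups were apart, but the control libraries also differed from each other. Of its 50-base stretches, 25.8% are shared with other genes, and 767 exon bases overlap Gm49759 on the same strand. Its log2 change of -0.48 ± 0.11 (SE, adjusted p = 0.0329 in limma) was the smallest of the 7 calls and the least firm. The adjusted p was 0.364 without cytoEV replicate 1, 0.177 without cytoEV replicate 2, 0.149 with no filter, 0.103 with quantile normalization, 0.0736 without Ins1 and Ins2 in the total, 0.0638 without the intensity trend, 0.0570 with TMM factors and 0.0577 in edgeR.

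The lactate dehydrogenase genes had log2 changes of opposite sign. Ldha encodes the subunit that prevails in cells exporting lactate, on chromosome 7 from 46841475 to 46855627. It was at 14.7 and 14.6 CPM in cytoEV islets, against 47.2 and 47.1 CPM in control islets. Replicates were nearly identical in both groups, from 1982 to 7361 reads per library. Ldha fell to 31.0% of the control mean, a log2 change of -1.62 ± 0.10 (SE, adjusted p = 2.49e-05 in limma), and held rank 24 among the 12780 tested genes ordered from the largest fall. Its call held in each of 18 alternatives, with a largest adjusted p of 0.00393. Ldhb, on chromosome 6 from 142490249 to 142507957, encodes the subunit that prevails in oxidative tissues such as heart. It was at 16.9 and 15.9 CPM in cytoEV islets, against 13.7 and 13.4 CPM in control islets. The log2 change of Ldhb was 0.26 (95% interval 0.02 to 0.50), which did not pass over all genes (limma adjusted p = 0.183). Other genes share 323 of 3575 stretches of Ldha and 339 of 1615 of Ldhb.

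The transporter genes were the lowest in level. Slc16a3 encodes MCT4, the transporter known from highly glycolytic cells, on chromosome 11 from 120948480 to 120960868. It had 1.04 and 1.24 CPM in cytoEV islets, against 8.40 and 5.15 CPM in control islets. These were 143 and 169 reads in cytoEV libraries and 1090 and 805 reads in control libraries. Even the lower control library was far above both cytoEV libraries, and the cytoEV mean was 16.8% of the control mean. The log2 change was -1.83 ± 0.19 (SE, adjusted p = 0.000894 in limma), at rank 17 of all tested genes. At this low level the size depends on the scale: the value was -2.58 when edgeR was run on the reads and -0.93 when 5 was added to each CPM in place of 1. Slc16a1 encodes MCT1, the most widespread of these transporters, on chromosome 3 from 104638668 to 104658462. It had 0.725 and 0.522 CPM in cytoEV islets, against 1.08 and 1.27 CPM in control islets, or 100 and 71 reads in cytoEV libraries and 140 and 198 reads in control libraries. Its log2 change was -0.42 (95% interval -0.73 to -0.11) and did not pass (limma adjusted p = 0.106). The value was -0.13 when 5 was added to each CPM in place of 1, and -0.92 in edgeR (adjusted p = 0.0887). Neither transporter gene shares a 50-base stretch with another gene.

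**Figure D3:**
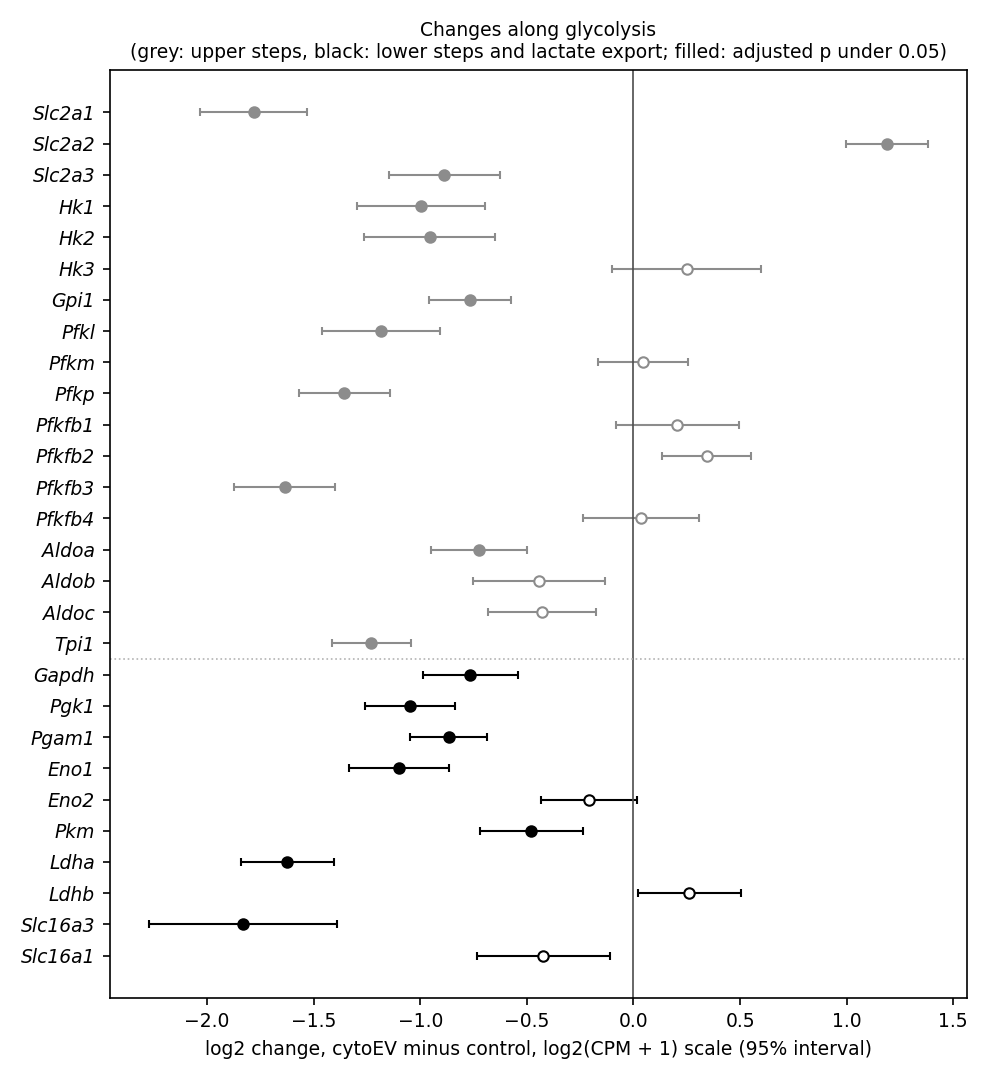
Log2 changes (cytoEV minus control, log2(CPM + 1) scale) with 95% limma intervals for 18 genes of the upper steps (grey) and the 10 genes of the lower steps and lactate export (black), in pathway order from top to bottom; filled points had an adjusted p under 0.05. All filled points but that of Slc2a2 lie between -0.48 and -1.83, and that of Slc2a2 at 1.19.

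Ratios of paralogs within a library do not change with the scaling of that library. In CPM per kb of exon, Ldha to Ldhb was 0.412 and 0.434 in cytoEV islets, against 1.63 and 1.67 in control islets. Ldha thus made up 29.2 and 30.3% of the summed lactate dehydrogenase level in cytoEV islets, against 62.0 and 62.6% in control islets. Eno1 to Eno2 was 2.68 and 2.78 in cytoEV islets, against 5.21 and 4.96 in control islets. Slc16a3 to Slc16a1 was 1.19 and 1.98 in cytoEV islets, against 6.48 and 3.38 in control islets. The groups did not overlap in any of the 3 ratios. An exact two-sided permutation test with 2 libraries against 2 cannot go below p = 0.333, and each ratio gave that value. With the longest coding transcript as length the Ldha shares were 38.4 and 39.7% in cytoEV islets, against 71.2 and 71.7% in control islets, so with either length Ldha was the lower of the pair in cytoEV islets and the higher in control islets.

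**Figure D4:**
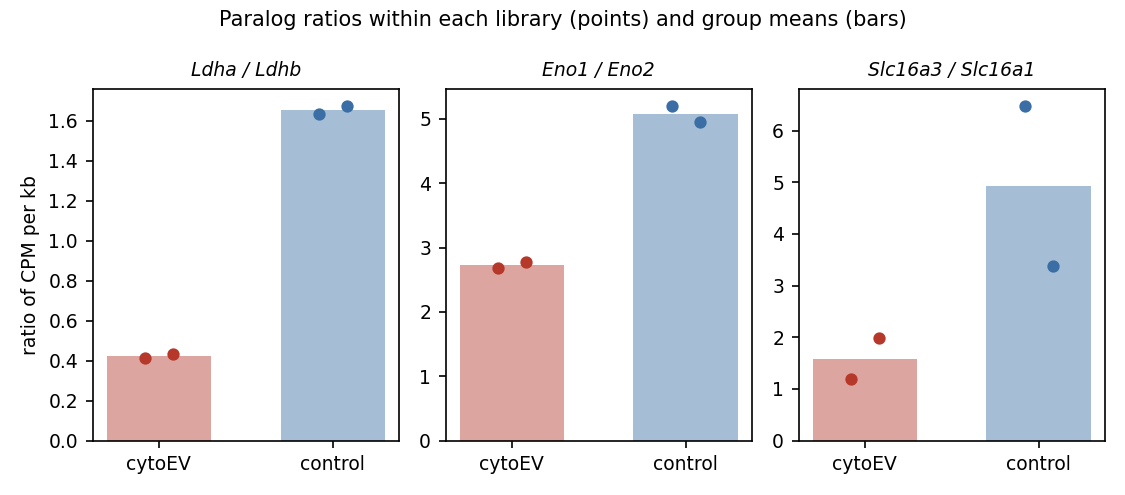
Ratios of CPM per kb of exon between paralogs in each library (points) and their group means (bars from 0), with cytoEV islets to the left of control islets. Ldha to Ldhb is near 0.42 in cytoEV islets and near 1.65 in control islets, and both Slc16a3 to Slc16a1 points of cytoEV islets lie under those of control islets.

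Ordered by level per kb of exon, Pkm stood first and Gapdh next in every library, at 147 ± 5.6 and 92.2 ± 2.9 CPM per kb in cytoEV islets and 205 ± 30 and 157 ± 19 CPM per kb in control islets (SD, n = 2 each). Pgam1 and Pgk1 followed in cytoEV islets at 67.0 and 64.4 CPM per kb, and Pgk1 and Pgam1 in control islets at 134 and 123 CPM per kb. In control islets the 2 differed by less than the SD of Pgk1, which was 13.3 CPM per kb. Eno1 came next in both groups, at 32.6 CPM per kb in cytoEV islets and 70.5 CPM per kb in control islets. Below it the order differed between the groups. In cytoEV islets it was Eno2 at 11.9, Ldhb at 10.5 and Ldha at 4.42 CPM per kb, and in control islets Ldha at 14.2, Eno2 at 13.9 and Ldhb at 8.62 CPM per kb. Ldha and Eno2 in control islets were within the SD of Eno2 (1.35). Slc16a3 was at 0.214 ± 0.027 CPM per kb in cytoEV islets and 1.28 ± 0.43 in control islets, and Slc16a1 was last at 0.141 ± 0.032 in cytoEV islets and 0.265 ± 0.030 in control islets (SD, n = 2 each). With the longest coding transcript as length, 8 of 10 genes kept their rank in cytoEV islets and 5 in control islets, where Gapdh then came before Pkm. With that length the mean of Eno1 came before those of Pgk1 and Pgam1 in both groups. In control replicate 2 alone Pgk1 stayed before Eno1.

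Other genes of the same or related steps were read beside them. Pklr, the pyruvate kinase of liver and red cells, was at 18.9 and 19.8 CPM in cytoEV islets and 17.1 and 15.8 CPM in control islets. Eno3, the muscle enolase, was at 17.1 and 19.7 CPM in cytoEV islets and 16.6 and 15.4 CPM in control islets. Ldhd, a D-lactate dehydrogenase, was at 12.3 and 12.1 CPM in cytoEV islets and 12.8 and 11.0 CPM in control islets. None of these 3 passed (limma adjusted p = 0.247, 0.373 and 0.871), whereas Eno1b was lower as given above. Slc16a7, which encodes MCT2, and Eno4 stayed under 1 CPM, and Gapdhs, Pgk2, Pgam2, Ldhc and Slc16a8 were listed at 0 in all libraries. Bsg encodes basigin, the chaperone that MCT1 and MCT4 need at the membrane. It was at 326 and 340 CPM in cytoEV islets, against 393 and 362 CPM in control islets (limma adjusted p = 0.240). Bsg passed as lower without control replicate 2, a setting that gave more calls over all genes. Emb, embigin, the partner of MCT2, was at 547 and 517 CPM in cytoEV islets, against 401 and 472 CPM in control islets (limma adjusted p = 0.116, and 0.0211 with quantile normalization and 0.0492 in DESeq2). Emb, too, passed without control replicate 2, as higher. The lactate receptor gene Hcar1 averaged 4.31 ± 0.16 CPM in cytoEV islets and 3.29 ± 0.23 CPM in control islets (SD, n = 2 each; limma adjusted p = 0.173).

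Upstream, 10 of 19 genes of glucose entry and upper glycolysis were lower and 1 was higher, and the list's median was -0.72 on the log2 scale; the other 8 did not pass. Slc2a1, which encodes the widespread glucose transporter GLUT1, was at 14.3 and 14.8 CPM in cytoEV islets, against 56.8 and 48.4 CPM in control islets (log2 change -1.78 ± 0.11 SE, limma adjusted p = 3.24e-05). Pfkfb3, whose product makes the activator fructose 2,6-bisphosphate, Pfkp, a phosphofructokinase, and Tpi1, triose phosphate isomerase, fell by 1.64, 1.36 and 1.23 on the log2 scale (limma adjusted p = 4.02e-05, 6.51e-05 and 5.11e-05). The higher gene was Slc2a2, the beta cell transporter GLUT2, at 1.19. Slc2a2 was singled out after its value was seen. Further lists covered the fate of pyruvate and the NADH shuttles. Of 19 genes of pyruvate entry into mitochondria and its exchange, Pdk1 was the 1 called lower (log2 change -0.54, limma adjusted p = 0.0137), and 18 did not pass. Pdk1 encodes a kinase that shuts off pyruvate dehydrogenase and is a known HIF target. Its call was lost with no filter (0.0694), without cytoEV replicate 1 (0.152) and without cytoEV replicate 2 (0.141). Pdk2, Gpt2 and Pdp1 had limma adjusted p of 0.145, 0.145 and 0.146. Pdk2 passed as higher without control replicate 1, and without control replicate 2 Gpt2 passed as lower and Pdp1 as higher. Leaving out either control library gave more calls over all genes. Of 10 genes of the NADH shuttles, Slc25a13, an aspartate-glutamate carrier, was called higher (log2 change 0.58, limma adjusted p = 0.0344), but not in edgeR (0.0675), with TMM factors (0.0523), with quantile normalization (0.0524), without Ins1 and Ins2 (0.0501), with no filter (0.126) or without cytoEV replicate 1 (0.250). The other 9 did not pass, and Mdh1, Gpd2 and Got1 had limma adjusted p of 0.0927, 0.105 and 0.230. Mdh1 passed as lower in DESeq2 (0.0241) and without control replicate 1 (0.00107) or 2 (0.0132), and Got1 as lower without control replicate 1 (0.0403). Gpd2 passed as higher in DESeq2 (0.0472), with quantile normalization (0.0347) and without control replicate 1 (0.0392) or 2 (0.000992).

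Hypoxia targets outside glycolysis were read in the same fit. Of 15 tested, 6 were lower, and the other 9 did not pass; the median of the list was -0.41 on the log2 scale. P4ha1 and P4ha2, collagen prolyl hydroxylases, fell by 0.94 and 0.95 on the log2 scale, and Bnip3, a mitophagy receptor, by 0.92 (limma adjusted p = 0.000643, 0.000643 and 0.000917). Plin2, a lipid droplet protein gene, fell by 0.70 (limma adjusted p = 0.00335), and its adjusted p was 0.0519 without cytoEV replicate 1. The count of lower genes was 9 in DESeq2, where 6.61% of all tested genes were lower. In limma the count rose without control replicate 1 and fell without cytoEV replicate 1, as did the count over all genes. Adm, the adrenomedullin gene and 1 of the 6, was at 0.0652 and 0.235 CPM in cytoEV islets, against 1.19 and 1.13 CPM in control islets. It passed the expression filter through its control values alone, so its lower level follows in part from the filter. Vegfa, which encodes the angiogenic factor, was at 376 and 340 CPM in cytoEV islets, against 188 and 421 CPM in control islets (limma adjusted p = 0.530). Both cytoEV values lay between the control values, so the data give no direction for Vegfa. Adm and Vegfa were singled out after their values were seen. Of 8 genes of the HIF system itself, Egln3 and Egln1, which encode prolyl hydroxylases that mark HIF for destruction and are themselves HIF targets, were lower by log2 changes of -1.38 and -0.36 (limma adjusted p = 0.000552 and 0.0460). The Egln1 call was lost without cytoEV replicate 1 (0.568), without cytoEV replicate 2 (0.593), with a replicate block (0.165), with quantile normalization (0.0509), with a filter of 5 CPM (0.0536), without the trend (0.0701) and with no filter (0.0778). Hif1a, the HIF-1 alpha gene, singled out after its value was seen, was at 101 CPM in cytoEV islets and 102 CPM in control islets on average (limma adjusted p = 0.933). Arnt and Egln2 did not pass (limma adjusted p = 0.204 and 0.368), though Arnt did without control replicate 1 and Egln2 without control replicate 2. Both settings gave more calls over all genes. Of 6 other regulators of glycolysis 0 passed in limma, edgeR or DESeq2, and Myc alone had an unadjusted limma p under 0.05. Myc was at 2.92 and 3.06 CPM in cytoEV islets and 4.56 and 4.11 CPM in control islets (limma adjusted p = 0.0808, and 0.0203 without control replicate 2). Txnip, Foxo1 and Ppargc1a had limma adjusted p of 0.260, 0.266 and 0.356. Without control replicate 2, where more was called over all genes, Txnip and Foxo1 passed as higher.

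Markers of other islet and neighbouring cells were read beside these changes, since such cells are known to express Ldha and the transporters more than beta cells do. Endothelial markers summed to 45.2 and 47.9 CPM in cytoEV islets, against 60.7 and 60.9 CPM in control islets, and 3 of 9 tested were lower. That count fell without either cytoEV library and rose without control replicate 2, as did the count over all genes. Stellate cell markers summed to 275 and 300 CPM in cytoEV islets, against 402 and 345 CPM in control islets, and 4 of 10 were lower. The stellate count, too, fell without either cytoEV library and rose without control replicate 2, as over all genes. Schwann cell markers summed to 15.2 and 16.4 CPM in cytoEV islets, against 22.6 and 24.7 CPM in control islets, and 3 of 6 were lower (Cdh19, Gfap and Scn7a). Gfap and Scn7a passed the expression filter through their control values alone, so their lower level follows in part from the filter. Acinar markers summed to 149 and 156 CPM in cytoEV islets, against 235 and 220 CPM in control islets, with 4 of 5 tested lower and Amy2b, Ctrc and Rbpjl listed at 0. Most of that sum was Bhlha15, a transcription factor gene, at 135 and 140 CPM in cytoEV islets, against 202 and 191 CPM in control islets. The digestive enzyme genes Cpa1, Ctrb1 and Prss2 were far lower, at 2.01, 4.55 and 6.23% of their control means, which were 2.38, 5.32 and 3.11 CPM. These 3 passed the filter through their control values alone, so their lower level, too, follows in part from it. Ductal markers summed to 476 and 489 CPM in cytoEV islets, against 587 and 542 CPM in control islets, with 2 of 5 tested lower (Spp1 and Muc1). More were lower without control replicate 2, as over all genes. The largest part of that sum was Krt7, at 214 and 225 CPM in cytoEV islets, against 248 and 209 CPM in control islets. Sox9 and Cftr stayed under 1 CPM and Krt19 was above 1 CPM in control replicate 1 alone, so these ductal markers were not tested. Of 14 macrophage markers 1 was higher and 1 lower, with sums of 358 and 369 CPM in cytoEV islets and 361 and 356 CPM in control islets. Macrophage calls rose in number in both directions without either control library, as did the calls over all genes. Alpha cell markers summed to 23560 and 23250 CPM in cytoEV islets and 20930 and 22340 CPM in control islets, and delta cell markers to 725 and 782 CPM in cytoEV islets and 919 and 771 CPM in control islets. Ppy of gamma cells was at 1975 and 2108 CPM in cytoEV islets and 3255 and 2438 CPM in control islets. Red cell genes were under 1 CPM throughout, with Hbb-bs and Hbb-bt listed at 0. The part of these cells in the changes of the 10 genes was not tested.

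**Figure D5:**
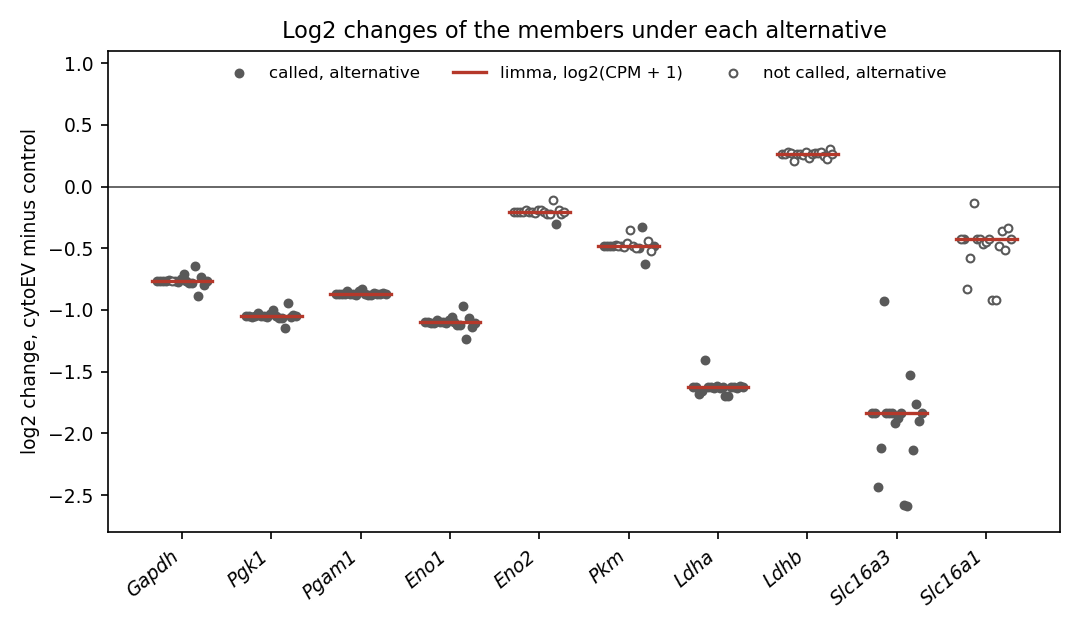
Log2 changes of the 10 genes (cytoEV minus control) in limma on log2(CPM + 1) (red bars) and under each alternative (points, filled where the adjusted p was under 0.05). Ldha, Eno1, Pgk1, Pgam1 and Slc16a3 are filled in all 18 alternatives, Pkm in 10, and every Ldhb point is above 0 and open.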

How the data were processed

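Poly(A) RNA libraries of mouse islets were prepared with a strand-marking kit (200 ng total RNA each), per the labels' protocols. The tools in the submitters' processing notes are edgeR 3.1.1, R 3.6.1, StringTie 2.1.3 and TopHat2 2.0.6, listed without their roles, and the build is mm10. How counting treated the strand was not given in the sources used here, so overlapping genes on opposite strands may share reads. The authors deposited 1 table of CPM values, each column summing to 1000000. Columns were assigned to samples by name and replicate number. All values above 0 were multiples of 1 step per library (100% within a tolerance of 0.01 read), which gave back whole reads.

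The 12780 genes that reached 1 CPM in 2 or more of the 4 libraries were tested on log2(CPM + 1), using limma 3.58.1 (R 4.3.3) and its intensity trend, with 2 residual degrees of freedom; p-values were adjusted over all of them by Benjamini-Hochberg. Fold changes on this scale understate those of low genes. EdgeR 4.0.16 and DESeq2 1.42.0 were run on recovered reads, where edgeR called 402 genes lower and 322 higher. The code of the tests was tried on simulated counts with an assumed spread. That spread was not estimated from these libraries, so the trial does not bear on the calls. Lengths, coordinates and 50-base sharing came from GENCODE M21 (GRCm38), where 23350 of 24419 symbols matched, and promoters from RefSeq (GRCm38.p6), where all 10 genes matched with 14 starts. Figures and tables were made with Python 3.11.15, pandas 2.3.3 and matplotlib 3.10.9.

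The 10 genes and the lists were chosen with earlier results of these data known. Named genes were the 10, their expressed paralogs and Ldhd, up to 4 genes per list with the smallest p, Actb of the reference genes, and the 5 genes nearest in profile. Others are marked. Means are given with the SD of 2 libraries and changes with limma's SE. The value of 1 gene of the upper glycolysis list is not reported here.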

Additional observations from a re-analysis of the deposited data

How the results depend on the processing

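Of the 10 genes, 7 were called lower with limma, and between 5 (no filter) and 8 (without control replicate 2, and with a crossed replicate block) under the alternatives. Leaving out 1 library gave between 6 and 8, where a group left with 1 library took its spread from the remaining ones. The direction of all 10 log2 changes was kept in every alternative in which a gene was tested. Slc16a1 was not tested with a filter of 5 CPM. Over all genes, limma called 449 lower and 404 higher. With no filter these were 179 and 149, in DESeq2 845 and 745, and with a filter of 5 CPM 302 and 252. Leaving out 1 library gave between 249 and 2023 lower and between 215 and 2408 higher: 249 and 215 without cytoEV replicate 1, 303 and 234 without cytoEV replicate 2, 1389 and 1047 without control replicate 1, and 2023 and 2408 without control replicate 2. Of the 10 control ranks by level per length, 5 were kept with the longest coding transcript. The median log2 change of all tested genes moved between -0.01 and 0.03 with the alternatives.

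Same-numbered libraries did not deviate together (correlation -0.22 over 12780 genes), and no label pairs them, so the numbers were not taken as pairs. With the replicate block 7 of the 10 genes were lower, and 512 genes lower and 481 higher in all. Crossing the numbers, an alternative added after seeing the data, gave 8 of the 10, with 1434 lower and 1469 higher. With 2 libraries a group, no exact test of a single gene can pass, and each call rests on the spread limma pools across genes.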

Other observations

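Gapdh is often used as a reference gene in quantitative PCR, as are the 16 other genes of a list read beside it. Of those 16, B2m was higher (306 and 291 CPM in cytoEV islets, against 58.2 and 66.0 CPM in control islets, limma adjusted p = 2.89e-06) and Tuba1b lower (log2 change -0.45, limma adjusted p = 0.0203), and 14 did not pass. The Tuba1b call was lost with no filter (0.0775) and without either cytoEV library. More of the 16 were lower without control replicate 2, as over all genes. The list's median log2 change was -0.03. Actb was at 242 and 252 CPM in cytoEV islets, against 336 and 276 CPM in control islets (limma adjusted p = 0.129, 0.000156 without control replicate 2 and 0.0496 in DESeq2). Gusb had a limma adjusted p of 0.0934, which was 0.0165 and 0.00640 without control replicates 1 and 2 and 0.0446 in DESeq2. Gapdh to Actb averaged 1.54 ± 0.0011 in cytoEV islets and 2.13 ± 0.039 in control islets (SD, n = 2 each). Gapdh to the median of the 16 genes was 1.73 and 1.83 in cytoEV islets, against 3.79 and 2.88 in control islets. The log2 change of this ratio was -0.89, against -0.76 for Gapdh itself. The median of the 16, B2m among them, was thus not level between the groups.

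The genes nearest to the mean centred log2(CPM + 1) profile of the 10 genes over the 4 libraries, among 8930 genes with a mean of at least 10 CPM, were Vim, Tuba4a, Col5a2, Tubb5 and Litaf, at Euclidean distances of 0.0358, 0.0425, 0.0454, 0.0456 and 0.0486. Vim, which encodes the intermediate filament vimentin, was at 25.6 and 25.9 CPM in cytoEV islets, against 47.2 and 42.4 CPM in control islets. Tuba4a and Tubb5, tubulin genes, were at 93.4 and 95.1 CPM and at 85.9 and 90.0 CPM in cytoEV islets, against 168 and 159 CPM and 165 and 148 CPM in control islets. Col5a2, a collagen gene, was at 48.0 and 49.6 CPM in cytoEV islets, against 92.0 and 84.7 CPM in control islets, and Litaf at 12.5 and 12.0 CPM in cytoEV islets, against 22.7 and 20.9 CPM in control islets. With 4 libraries in 2 groups such likeness says little beyond a similar difference between the groups.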
